A study of Mus musculus with 12 samples.

Results

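Heat shock proteins, their co-chaperones and the chaperonins fold new proteins, refold damaged ones and hold unfolded ones, and 44 of their genes were followed here among the 55291 gene symbols of the deposited count table. The 44 genes were taken by symbol and not by a rule on any measured value, but earlier results of these data were known. They hold the heat shock factors Hsf1 and Hsf2, 8 HSP70 genes, 3 HSP110 genes, 2 BAG genes and 10 J protein genes. The rest are 2 HSP90 genes with 6 co-chaperones, the mitochondrial chaperonin pair, the small heat shock protein Hspb1 and the 8 subunits of the CCT chaperonin. RNA of mouse CD8+ T cells was sequenced in bulk after removal of rRNA, in 12 libraries, 3 in each of 4 groups. All cells were wild type (WT) and came from the spleen and lymph nodes of male mice, and the labels used here name neither strain nor age. The rat tail collagen group was activated for 2 days by anti-CD3 bound to the plate together with soluble CD28, expanded for 1 day in rmIL-2, and then held for 24 h in a RatCol gel of 2 mg/mL, a gel of rat tail collagen. The bovine collagen group was treated in the same way but for a Nutragen gel of bovine collagen, also at 2 mg/mL. The media group had the same activation and expansion and then 24 h in media with no gel. RNA of these 3 groups was taken on day 4, after cells had been recovered from the gels, and that recovery cannot be told apart from the gel itself. The naive group was lysed fresh on day 0, so it differs from the media group in activation, in expansion and in culture at once. Labels state 3 per group without saying which animal gave which library, so every p-value measures the spread between these libraries, which may in part be technical.

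HSP70 proteins bind exposed stretches of unfolded protein in a cycle of ATP use. J proteins deliver the clients and start the cycle, while HSP110 and BAG proteins end it by releasing the nucleotide. HSP90 takes over kinases and receptors with the help of its own co-chaperones, CCT folds actin and tubulin inside a closed barrel, and heat shock factors switch on the inducible members by binding heat shock elements in DNA. In T cells HSP90 and its adaptor Cdc37 are known to keep kinases of antigen receptor signalling such as Lck folded and active.

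Libraries held 28483064 to 53138362 counts. Summed markers of CD8 T cells (Cd3d, Cd3e, Cd3g, Cd8a and Cd8b1) lay at 1816 to 2043 CPM, the read count scaled to a common library size, in rat tail collagen, 2204 to 2421 in bovine collagen, 2172 to 2443 in media and 2939 to 3481 in naive libraries. The 6 myeloid markers summed to 17.5 to 24.7 CPM in rat tail collagen, 9.62 to 10.4 in bovine collagen, 9.11 to 9.94 in media and 34.4 to 126 in naive libraries. Cd68 made up most of the rat tail collagen sum, with a mean of 18.8 CPM there, against 6.23 CPM in media. Cd14 and Adgre1 were low but also higher, at 0.901 and 0.212 CPM in rat tail collagen, against 0.0882 and 0.0423 CPM in media. Lyz2 and Csf1r were under 0.1 CPM in every day 4 group, and Itgam averaged 1.08 CPM in rat tail collagen, against 2.98 CPM in media. Of B cell markers, Ighm averaged 855 ± 163 CPM in rat tail collagen, 949.5 ± 93.6 in bovine collagen, 955 ± 64.8 in media and 446 ± 35.0 in naive libraries (SD, n = 3 each), while Ms4a1 had a mean of at most 0.652 CPM in any group. The 4 markers of CD4 T and NK cells reached 59.4 to 72.0 CPM in rat tail collagen, 24.8 to 36.4 in bovine collagen, 21.1 to 37.7 in media and 18.5 to 41.0 in naive libraries. That sum rested on Zbtb7b and Klrb1c, with means of 53.8 and 8.70 CPM in rat tail collagen, against 26.0 and 0.324 CPM in media. Cd4 itself averaged 2.40 CPM in rat tail collagen, against 2.87 CPM in media, and Ncr1 0.0666 CPM, against 0.0326 CPM in media. Stromal and endothelial markers summed to 73.6 to 79.5 CPM in rat tail collagen, 125 to 144 in bovine collagen, 131 to 147 in media and 149 to 175 in naive libraries, mostly from Pecam1, which T cells can also express. In rat tail collagen Pecam1 averaged 70.0 CPM, Col1a1 4.28 and Fn1 1.71, against 136, 0.311 and 0.161 CPM in media, so the stromal genes Col1a1 and Fn1 stood the other way round from the sum. Red cell and platelet markers summed to 2.99 to 4.37 CPM in rat tail collagen, 3.33 to 4.66 in bovine collagen, 2.79 to 4.20 in media and 5.14 to 18.1 in naive libraries, with Hbb-bs at 0 in bovine collagen and Alas2 at 0 in media. Genes of rRNA took 5.03% to 13.2% of counts in rat tail collagen, 5.50% to 11.9% in bovine collagen, 4.45% to 4.72% in media and 3.96% to 5.67% in naive libraries, and the nuclear RNA Malat1 took 1.11% to 1.47% in rat tail collagen, 0.195% to 0.276% in bovine collagen, 0.179% to 0.295% in media and 0.678% to 0.857% in naive libraries. These shares moved with the groups compared here, and their part in the results was not tested.

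The chaperone genes split in rat tail collagen against media. The stress-inducible HSP70 genes Hspa1a and Hspa1b, all 3 HSP110 genes, the co-chaperone Bag3 and the small heat shock protein Hspb1 rose by 3-fold or more, while the constitutive HSP70 gene Hspa8, the J protein gene Dnajb1 and 4 CCT subunits fell by less than 2-fold, and the 2 HSP90 genes did not pass the test. In all, 19 of the 44 members were higher and 10 were lower at an adjusted p under 0.05, and 15 were not called. Among the 19392 genes tested, 58.4% were called, 29.7% higher and 28.7% lower, so the number of calls alone sets the members little apart from other genes. A call with a change of 2-fold or more was reached upward by 11 members, against 16.0% of all genes, and downward by 0 members, against 6.88% of all genes. The median log2 change was 0.15 over the 44 members and -0.01 over all genes. Adjusted p-values are those of edgeR's quasi-likelihood test with Benjamini-Hochberg adjustment over all genes tested. RNA was measured in bulk, so fewer cells of a kind and less RNA per cell cannot be told apart in any of these changes. All 44 members passed the filter on low counts, but Hspa1l and Hspb1 did so in the day 4 fit through the rat tail collagen libraries alone, and in media against naive through the naive libraries alone, and a member that passes in this way had to differ. Without these 2 genes, 17 of 42 members were higher and 10 lower in rat tail collagen against media, 9 of them higher by 2-fold or more. Summed over the 44 genes, the day 4 groups overlapped, at 8253, 7811 and 8058 CPM in rat tail collagen, 8207, 7606 and 7094 CPM in bovine collagen and 8519, 7350.2 and 7093 CPM in media, whereas naive libraries held 8766, 10910.4 and 11298 CPM. The map of levels by library shows the split gene by gene.

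**Figure D1:**
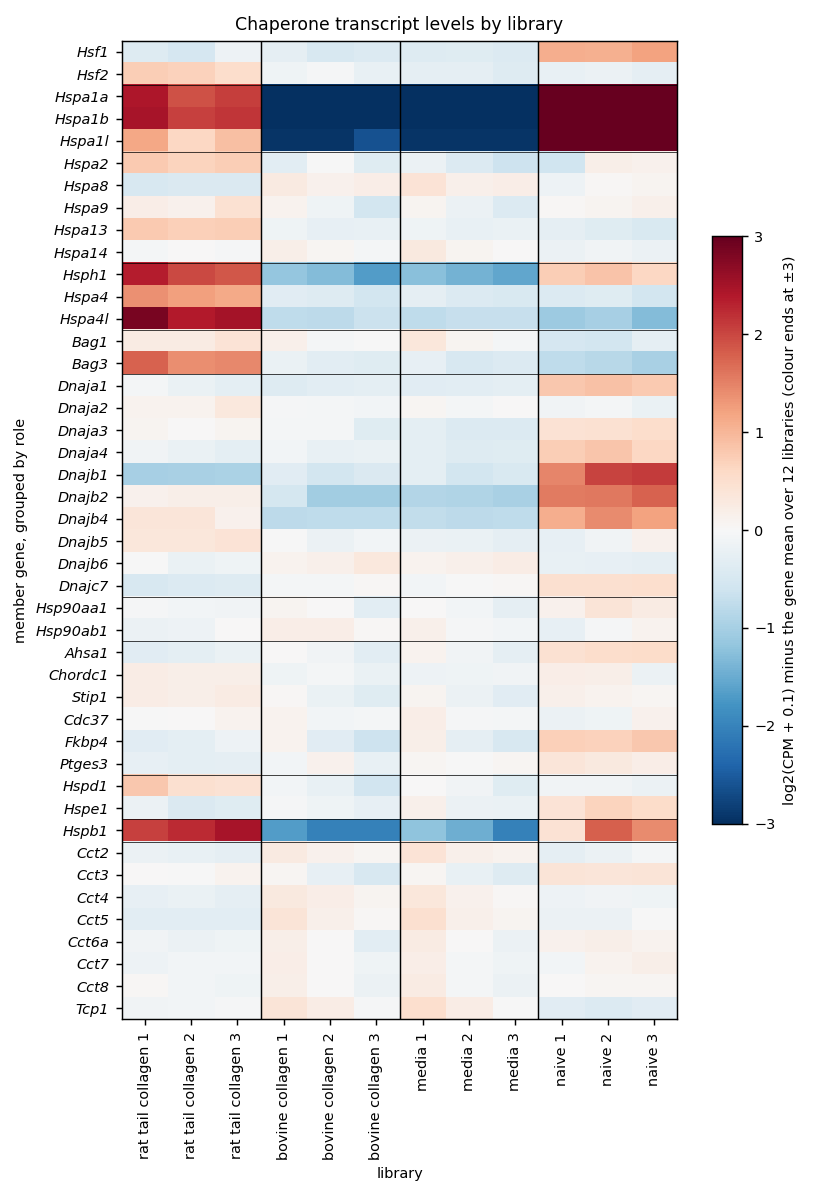
Level of each of the 44 genes (rows, grouped by role) in each of the 12 libraries (columns), as log2(CPM + 0.1) minus the gene's mean over the libraries, with the colour scale ending at ±3. Rat tail collagen libraries are red for Hspa1a, Hspa1b, Hsph1, Hspa4, Hspa4l, Bag3 and Hspb1, bovine collagen and media libraries look alike, and naive libraries are red for the HSP70 locus and several J proteins.

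**Figure D2:**
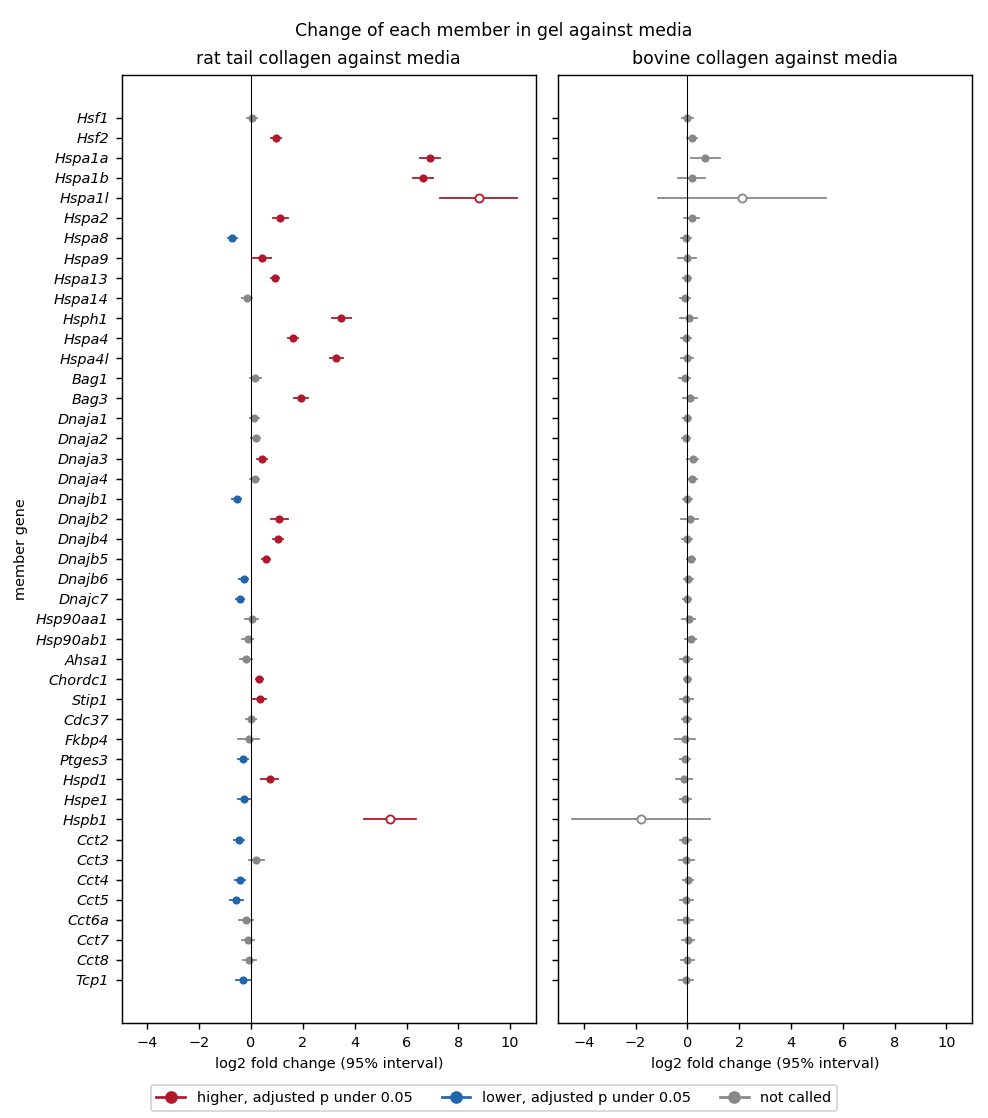
Log2 fold change with its 95% interval for each member in rat tail collagen against media (left) and in bovine collagen against media (right), with calls at an adjusted p under 0.05 in red (higher) and blue (lower). Hollow points mark Hspa1l and Hspb1, whose fitted values rest on 0 to 6 counts in the media or bovine collagen group and are no measure of size. The left panel holds 19 higher and 10 lower members and the right panel 0.

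Hspa1a and Hspa1b encode the HSP70 proteins best known for their induction by heat and other stress. Hspa1a had 65.7, 46 and 51.7 CPM in rat tail collagen, 0.809, 0.595 and 0.738 CPM in bovine collagen, 0.401, 0.484 and 0.470 CPM in media and 557, 1199 and 1284 CPM in naive libraries. Hspa1b had 90.6, 67.1 and 71.5 CPM in rat tail collagen, 0.836, 0.634 and 1.02 CPM in bovine collagen, 0.878, 0.646 and 0.748 CPM in media and 693, 1465 and 1572 CPM in naive libraries. For both genes every rat tail collagen library lay far above every bovine collagen and media library and far below every naive library. Naive replicate 1 held less of both genes than the other naive libraries. In rat tail collagen against media Hspa1a rose by 6.90 ± 0.180 on the log2 scale (SE, adjusted p = 6.09e-10), which is 119.6-fold, and Hspa1b rose by 6.63 ± 0.171 (SE, adjusted p = 6.09e-10), which is 99.2-fold. The third gene of the locus, Hspa1l, which is best known from testis, had 166 counts over the 3 rat tail collagen libraries, 1 count in bovine collagen, 0 in media and 2960 in naive libraries. Against a floor of 3 counts over the media group, the counts given to Hspa1l were at least 61.5-fold higher in rat tail collagen.

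Hspa1a lies at chr17:34969190-34972156 and Hspa1b at chr17:34956436-34959238, both on the minus strand of GRCm38. Their coding sequences in GENCODE M21 are 99.4% identical, with 11 differing positions and an identical run of 638 bases, so reads can be split between them and their separate values are uncertain. Their sum was 156, 113 and 123 CPM in rat tail collagen, 1.64, 1.23 and 1.76 CPM in bovine collagen, 1.28, 1.13 and 1.22 CPM in media and 1250.3, 2664 and 2856 CPM in naive libraries, in the same order of groups as each gene alone. Hspa1l starts 547 bases from the start of Hspa1a on the other strand, at chr17:34972703-34979285, and its coding sequence is 82.8% identical to that of Hspa1a. Hspa1l shares identical runs of 233 bases with Hspa1a and 188 with Hspa1b, so reads can be split here too. Its CPM was 2.46%, 2.36% and 2.60% of that of Hspa1a in rat tail collagen and 2.23%, 2.43% and 2.58% in naive libraries, and whether Hspa1l itself changed cannot be told from these counts. The ratio of Hspa1a to Hspa1b was 0.726, 0.687 and 0.723 in rat tail collagen, 0.967, 0.937 and 0.725 in bovine collagen, 0.457, 0.750 and 0.629 in media and 0.803, 0.819 and 0.817 in naive libraries, with a wider spread in the groups of few counts. The bases before the starts of both genes are shown because the copies rose together, and they are taken from RefSeq on GRCm38.p6. Their 250 bases are 98.8% identical, with 3 differing positions, and the capitals mark a match to GAANNTTC, a pair of head-to-head units of the heat shock element, at 104 to 97 bases before each start.
Hspa1a, chr17:34972157-34972406, minus strand: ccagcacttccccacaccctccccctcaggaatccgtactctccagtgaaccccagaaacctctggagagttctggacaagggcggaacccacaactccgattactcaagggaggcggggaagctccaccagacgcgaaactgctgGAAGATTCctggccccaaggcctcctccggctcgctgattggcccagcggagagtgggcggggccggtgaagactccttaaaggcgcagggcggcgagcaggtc
Hspa1b, chr17:34959239-34959488, minus strand: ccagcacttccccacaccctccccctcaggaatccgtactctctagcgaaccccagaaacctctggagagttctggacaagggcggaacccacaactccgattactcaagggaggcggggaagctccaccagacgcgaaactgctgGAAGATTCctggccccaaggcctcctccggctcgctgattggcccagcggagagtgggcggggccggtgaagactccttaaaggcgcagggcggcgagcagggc

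Of the other HSP70 genes, 3 rose and 1 fell in rat tail collagen against media, beside 29.7% higher and 28.7% lower of all genes. Hspa8 encodes the constitutive cytosolic HSP70 and had 1051, 1077 and 1076 CPM in rat tail collagen, 1765, 1583 and 1671 CPM in bovine collagen, 1952, 1623 and 1674 CPM in media and 1323, 1502 and 1546 CPM in naive libraries. All 3 rat tail collagen libraries were below every library of the other groups, and the log2 change against media was -0.72 ± 0.0862 (SE; adjusted p = 2.66e-05). The ratio of the summed inducible copies Hspa1a and Hspa1b to Hspa8 was 0.149, 0.105 and 0.115 in rat tail collagen, 0.000932, 0.000777 and 0.00105 in bovine collagen, 0.000655, 0.000696 and 0.000728 in media and 0.945, 1.77 and 1.85 in naive libraries. This ratio, which is not corrected for length, kept the 4 groups in the same order as Hspa1a and Hspa1b themselves, with no overlap between rat tail collagen, naive and the other day 4 libraries. Hspa13, a microsomal HSP70, had 30.1, 28.6 and 29.3 CPM in rat tail collagen, 15.8, 14.6 and 14.8 CPM in bovine collagen, 15.8, 14.8 and 15.2 CPM in media and 14.5, 13.5 and 12.7 CPM in naive libraries. The rat tail collagen group stood apart from all others, at 0.93 ± 0.0707 (SE; adjusted p = 8.13e-07) against media. Hspa2, an HSP70 best known for its part in sperm formation, had 14, 12.9 and 13.6 CPM in rat tail collagen, 6.50, 8.01 and 6.31 CPM in bovine collagen, 7.16, 6.11 and 5.24 CPM in media and 5.30, 9.18 and 8.89 CPM in naive libraries. It too was higher in every rat tail collagen library than in any other, at 1.12 ± 0.133 (SE; adjusted p = 2.54e-05) against media. Hspa9, the mitochondrial HSP70, averaged 241 ± 29.4 CPM in rat tail collagen and 179.5 ± 29.9 CPM in media (SD, n = 3 each), a log2 change of 0.41 ± 0.162 (SE; adjusted p = 0.0454). That call was lost when any 1 rat tail collagen library or media replicate 2 or 3 was left out, with log2 changes of 0.30 to 0.48. Hspa14, a ribosome-bound HSP70, averaged 47.5 ± 1.29 CPM in rat tail collagen and 53 ± 5.37 CPM in media (SD, n = 3 each) and was not called (-0.17, adjusted p = 0.109).

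The HSP110 proteins Hsph1, Hspa4 and Hspa4l are relatives of HSP70 that act as its nucleotide exchange factors and help it take apart aggregates. Hsph1 had 682, 525 and 482 CPM in rat tail collagen, 59.4, 53.9 and 41.9 CPM in bovine collagen, 55.4, 49.8 and 44.8 CPM in media and 221, 240.2 and 205 CPM in naive libraries. Naive libraries lay between the rat tail collagen libraries above and the other day 4 libraries below, with no overlap. Hspa4l had 383, 277 and 303 CPM in rat tail collagen, 31.3, 31.2 and 34 CPM in bovine collagen, 31.6, 33.3 and 33.1 CPM in media and 25.2, 26.6 and 21.8 CPM in naive libraries. Here naive libraries were the lowest of all. Hspa4 had 647, 579.8 and 551 CPM in rat tail collagen, 198, 189 and 169 CPM in bovine collagen, 206, 186 and 182 CPM in media and 188, 193 and 171 CPM in naive libraries, and the bovine collagen, media and naive groups overlapped. Against media, Hsph1 rose by 3.48 ± 0.164 (SE; adjusted p = 2.35e-08), Hspa4l by 3.29 ± 0.117 (SE; adjusted p = 3.29e-09) and Hspa4 by 1.62 ± 0.0919 (SE; adjusted p = 9.66e-08). The change was 11.2-fold for Hsph1, 9.76-fold for Hspa4l and 3.08-fold for Hspa4. Together the 3 genes summed to 1711, 1382 and 1336 CPM in rat tail collagen, 289, 274 and 245 CPM in bovine collagen, 293, 269 and 259.5 CPM in media and 434, 459.6 and 398 CPM in naive libraries. Rat tail collagen thus had the highest HSP110 sum of the 4 groups but not the highest sum of inducible HSP70.

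The stretch before the first RefSeq start of Hsph1 is shown because Hsph1 had the largest rise outside the HSP70 locus and Hspb1. Its capitals mark TTCNNGAA, the tail-to-tail form, at 33 to 26 bases before the start, and the line ends 11 bases before the start. A run of 3 units, TTCNNGAANNTTC or GAANNTTCNNGAA, lies at 36 to 48 bases after that start and is not shown.
Hsph1, chr5:149636347-149636586, minus strand: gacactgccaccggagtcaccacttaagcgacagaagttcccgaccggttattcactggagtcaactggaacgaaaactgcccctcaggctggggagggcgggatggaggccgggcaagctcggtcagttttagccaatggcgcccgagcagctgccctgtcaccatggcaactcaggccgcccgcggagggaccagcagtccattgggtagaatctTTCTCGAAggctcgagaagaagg

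**Figure D3:**
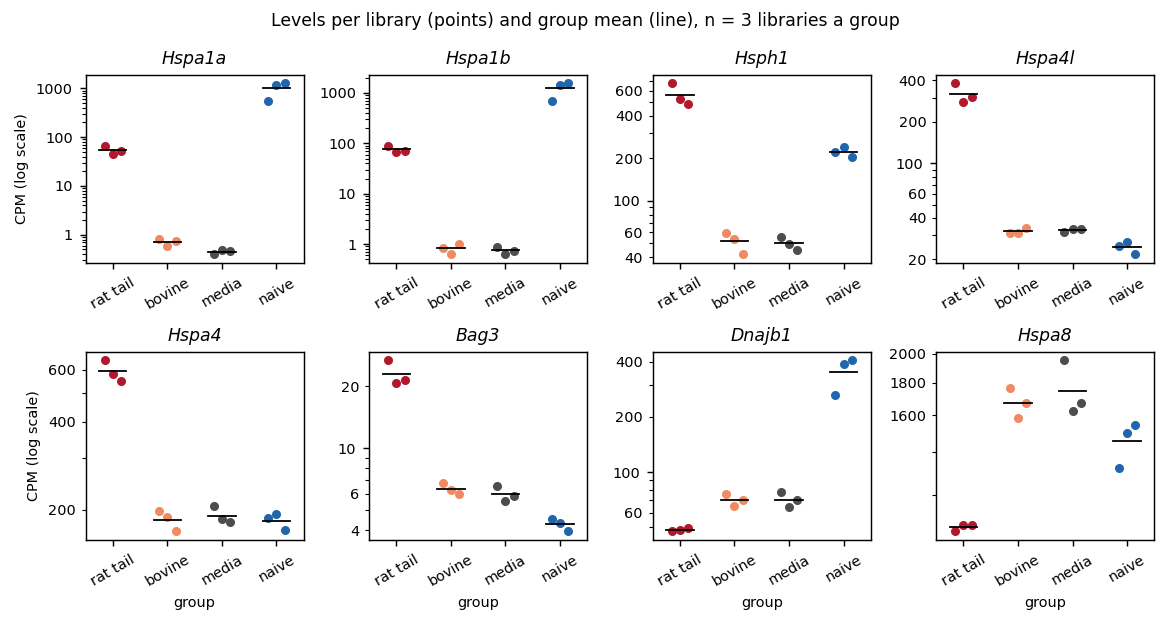
CPM on a log axis in each library (points) with the group mean (line) for 8 members, n = 3 libraries a group, in the order rat tail collagen, bovine collagen, media and naive. Rat tail collagen libraries are the highest for Hsph1, Hspa4l, Hspa4 and Bag3, lie below naive libraries for Hspa1a and Hspa1b, and are the lowest for Dnajb1 and Hspa8.

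Bag3 and Bag1 release clients and nucleotide from HSP70, and Bag3 is known as a partner of HSP70 in selective autophagy. Bag3 had 26.8, 20.7 and 21.5 CPM in rat tail collagen, 6.75, 6.30 and 6.01 CPM in bovine collagen, 6.57, 5.53 and 5.86 CPM in media and 4.54, 4.35 and 3.95 CPM in naive libraries. Every rat tail collagen library held more than 3 times as much as any media library, and naive libraries held the least. Its log2 change against media was 1.93 ± 0.119 (SE; adjusted p = 1.74e-07). Bag1 averaged 92.8 ± 5.85 CPM in rat tail collagen and 82.4 ± 11.3 CPM in media (SD, n = 3 each) and was not called (0.16, adjusted p = 0.174).

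J proteins, which deliver clients to HSP70, went both ways, with 4 of 10 higher, 3 lower and 3 not called in rat tail collagen against media, beside 29.7% higher and 28.7% lower of all genes. Dnajb1, the J protein that is the usual partner of inducible HSP70, had 47.5, 48.5 and 49.8 CPM in rat tail collagen, 76.1, 65 and 70.7 CPM in bovine collagen, 77.4, 64.7 and 70 CPM in media and 262, 387 and 407 CPM in naive libraries. Rat tail collagen libraries were the lowest of all and naive libraries the highest, and the log2 change against media was -0.55 ± 0.0777 (SE; adjusted p = 9.61e-05). The ratio of Dnajb1 to Hspa1b was 0.524, 0.724 and 0.697 in rat tail collagen, 90.9, 102 and 69.4 in bovine collagen, 88.1, 100.2 and 93.6 in media and 0.378, 0.264 and 0.259 in naive libraries. Dnajb4, a cytosolic relative of Dnajb1, had 24.5, 24.5 and 20.7 CPM in rat tail collagen, 11, 11.2 and 11.2 CPM in bovine collagen, 11.4, 10.9 and 11.2 CPM in media and 40.8, 50.6 and 43.6 CPM in naive libraries. The groups ran from naive at the top through rat tail collagen to the other day 4 groups, without overlap between these levels, and the log2 change against media was 1.05 ± 0.0878 (SE; adjusted p = 1.7e-06). Dnajb2, which binds ubiquitinated clients, had 8.49, 8.82 and 8.71 CPM in rat tail collagen, 5.38, 3.69 and 3.72 CPM in bovine collagen, 4.14, 4.10 and 3.87 CPM in media and 23.1, 23.3 and 26.5 CPM in naive libraries. It followed the same order of groups as Dnajb4, at 1.09 ± 0.148 (SE; adjusted p = 6.78e-05) against media. The other 2 that rose were Dnajb5 (0.57, adjusted p = 3.97e-05) and the mitochondrial Dnaja3 (0.42, adjusted p = 0.00225).

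Dnajc7, a J protein that works with both HSP70 and HSP90, averaged 123 ± 4.61 CPM in rat tail collagen and 163 ± 6.57 CPM in media (SD, n = 3 each) and fell (-0.42, adjusted p = 0.000242), as did the aggregation suppressor Dnajb6 (-0.29, adjusted p = 0.00804). The Dnajb6 call was lost with library totals (-0.24, adjusted p = 0.0793) and without the 3 libraries of highest rRNA share (-0.34, adjusted p = 0.0774). Dnaja1, a cytosolic partner of Hspa8, had 131, 118 and 111 CPM in rat tail collagen, 103, 109 and 111 CPM in bovine collagen, 107, 109 and 111 CPM in media and 236, 251 and 233 CPM in naive libraries. Dnaja4 had 18.6, 17.5 and 16.3 CPM in rat tail collagen, 19, 17.3 and 17.5 CPM in bovine collagen, 16.4, 15.3 and 15.6 CPM in media and 33.8, 35.8 and 31 CPM in naive libraries. For both genes the naive libraries were well above all others and rat tail collagen libraries overlapped those of both other day 4 groups, with log2 values of 0.13 for Dnaja1 (adjusted p = 0.167) and 0.14 for Dnaja4 (adjusted p = 0.166) in rat tail collagen against media. Dnaja2 stood at 0.17 (adjusted p = 0.0705), and its rat tail collagen and media libraries did not overlap. Dnaja2 was called higher with RLE factors (0.19, adjusted p = 0.0475) and with GC and length offsets (0.31, adjusted p = 0.0109), and Dnaja1 with those offsets (0.25, adjusted p = 0.00543).

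Neither HSP90 gene was called in rat tail collagen against media, though Hsp90ab1 was the most abundant of the 44 transcripts per length of exon. Hsp90ab1, the constitutive cytosolic form, averaged 1441 ± 109 CPM in rat tail collagen and 1572 ± 133 CPM in media (SD, n = 3 each), a log2 difference of -0.13 with a 95% interval of -0.34 to 0.07. It was called lower with GC and length offsets (-0.21, adjusted p = 0.0458). Hsp90aa1, the more inducible form, averaged 317 ± 7.81 CPM in rat tail collagen and 311 ± 30.7 CPM in media (SD, n = 3 each), a log2 difference of 0.02 with an interval of -0.22 to 0.26. Both intervals exclude a change of 2-fold. Of the 6 co-chaperones, Chordc1 rose by 0.31 (adjusted p = 0.00133) and Stip1, which links HSP70 to HSP90, by 0.34 (adjusted p = 0.0254), while Ptges3, the p23 protein that stabilises closed HSP90, fell by 0.32 on the log2 scale (adjusted p = 0.00904). The Stip1 call was lost without any 1 rat tail collagen library and without media replicate 2 or 3, at 0.24 to 0.36, and the Ptges3 call with GC and length offsets (-0.18, adjusted p = 0.127) and without the 3 libraries of highest rRNA share (-0.33, adjusted p = 0.0624). Ahsa1, the activator of HSP90's ATPase, stood at -0.20 (adjusted p = 0.11) and the kinase adaptor Cdc37 at -0.01 (adjusted p = 0.928). Fkbp4, the immunophilin of steroid receptor complexes, had 69.6, 71.9 and 79.4 CPM in rat tail collagen, 94.5, 69.5 and 57.2 CPM in bovine collagen, 100.1, 72.7 and 63.5 CPM in media and 146, 143 and 156 CPM in naive libraries. The 3 day 4 groups overlapped and the naive libraries lay above them all.

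The mitochondrial chaperonin pair moved apart. Hspd1 (HSP60) forms the folding chamber and Hspe1 (HSP10) is its lid, and their genes sit head to head on chromosome 1. Hspd1 had 285, 229.6 and 221 CPM in rat tail collagen, 155, 140.3 and 109 CPM in bovine collagen, 166, 151 and 128 CPM in media and 151, 152 and 146 CPM in naive libraries. Hspe1 had 53.1, 44.3 and 47.2 CPM in rat tail collagen, 58.4, 54.8 and 50.5 CPM in bovine collagen, 66.9, 53.4 and 52.3 CPM in media and 80.8, 95.7 and 88.9 CPM in naive libraries. Every rat tail collagen library was above all others for Hspd1, and for Hspe1 the rat tail collagen and media libraries overlapped. Hspd1 rose by 0.72 ± 0.143 (SE; adjusted p = 0.00115) against media and Hspe1 fell, at -0.26 ± 0.103 (SE; adjusted p = 0.0455). The Hspe1 call was lost with RLE factors, with library totals, with DESeq2, with GC and length offsets, and without media replicate 1 or rat tail collagen replicate 2 or 3, with values of -0.26 to -0.10. It was also lost with all 12 libraries in 1 fit (-0.26) and with only the 6 libraries of the comparison (-0.25). The ratio of Hspd1 to Hspe1 was 5.36, 5.18 and 4.69 in rat tail collagen, 2.65, 2.56 and 2.16 in bovine collagen, 2.49, 2.82 and 2.45 in media and 1.87, 1.59 and 1.64 in naive libraries. The annotated ends of the genes share 112 bases on opposite strands, and since no source used here gives the strand setting of the counting, reads from that stretch cannot be assigned. The 30 bases shown lie outside those 112 bases and hold the element matches in the windows of both genes. Capitals mark the 3 overlapping pairs of units, at 89 to 72 bases before the Hspe1 start. The same pairs lie 144 to 127 bases before 1 RefSeq start of Hspd1, at 55087932. The window of the other Hspd1 start, chr1:55088194-55088493, held 0 matches.
Hspe1, chr1:55088053-55088082, plus strand, from RefSeq: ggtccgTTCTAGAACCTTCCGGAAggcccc

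Hspb1 (HSP25 in mouse, HSP27 in human) is a small heat shock protein that holds unfolded proteins and binds actin. It had 1.59, 1.82 and 2.17 CPM in rat tail collagen, 0.0279, 0 and 0 CPM in bovine collagen, 0.0764, 0.0461 and 0 CPM in media and 0.446, 1.31 and 0.988 CPM in naive libraries. These levels came from 238 counts in rat tail collagen, 1 in bovine collagen, 6 in media and 108 in naive libraries, and the rat tail collagen libraries were all above the rest. The ratio of rat tail collagen to media was 44.1, with a 95% interval from counting error alone of 20.0 to 121. Its bases before the start are shown because the rise was large from a very low level, and the capitals mark 2 matches to GAANNTTC, at 117 to 110 and at 97 to 90 bases before the start.
Hspb1, chr5:135887669-135887918, plus strand, from RefSeq: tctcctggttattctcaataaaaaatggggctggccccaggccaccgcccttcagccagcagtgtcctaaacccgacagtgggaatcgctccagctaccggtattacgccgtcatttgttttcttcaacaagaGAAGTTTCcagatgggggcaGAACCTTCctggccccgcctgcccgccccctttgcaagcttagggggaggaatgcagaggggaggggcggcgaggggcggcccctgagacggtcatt

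CCT is the cytosolic chaperonin ring. In rat tail collagen against media 28.7% of all genes were lower and 29.7% higher. Of the 8 CCT subunits 4 fell and 0 rose there. Their log2 changes were -0.57 for Cct5 (adjusted p = 0.00102), -0.46 for Cct2 (adjusted p = 0.00121), -0.41 for Cct4 (adjusted p = 0.00166) and -0.33 for Tcp1 (adjusted p = 0.0417). The Tcp1 call was lost with RLE factors, with library totals, with GC and length offsets and when any 1 library of these groups but media replicate 3 was left out, at -0.34 to -0.15. Without the 3 libraries of highest rRNA share 1 rat tail collagen library is left. Cct5 (-0.54), Cct2 (-0.44), Cct4 (-0.35) and Tcp1 (-0.31) were then not called. The uncalled subunits stood at 0.19 for Cct3, -0.19 for Cct6a, -0.12 for Cct7 and -0.07 for Cct8. Cct5 had 235, 237 and 236 CPM in rat tail collagen, 387, 326 and 301 CPM in bovine collagen, 409, 328 and 310.2 CPM in media and 262, 259.8 and 293 CPM in naive libraries. Its rat tail collagen libraries were nearly equal and lay below every other library. The sum of the 8 subunits was 1585, 1572 and 1567 CPM in rat tail collagen, 2122, 1871 and 1684 CPM in bovine collagen, 2241, 1859.6 and 1713 CPM in media and 1639, 1692 and 1765 CPM in naive libraries. The subunits form 1 complex in equal numbers, and their transcript changes ran from -0.57 to 0.19.

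**Figure D4:**
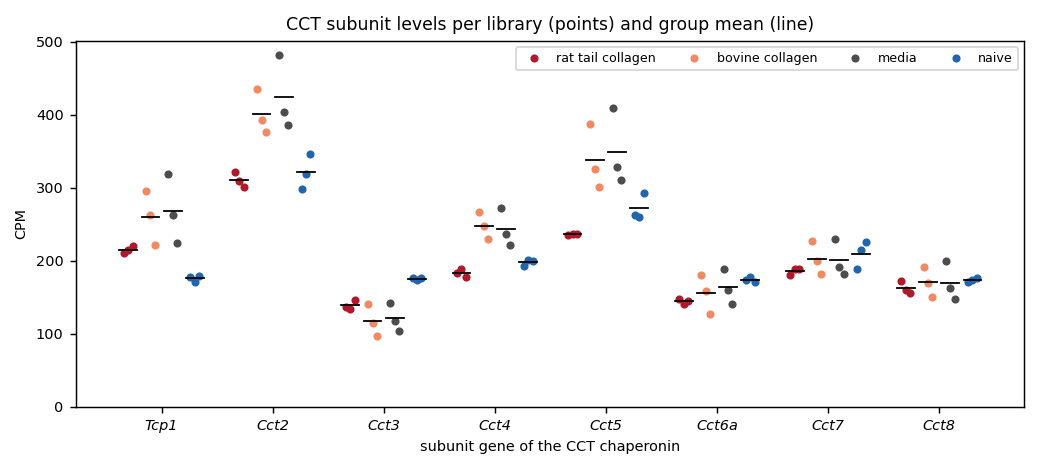
CPM of the 8 CCT subunit genes in each library (points) with the group mean (line), n = 3 libraries a group. For Cct2, Cct4, Cct5 and Tcp1 the rat tail collagen points lie below the media points, and for the other 4 genes these groups overlap.

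The heat shock factors that bind the promoters of the inducible members differed from each other. Hsf1, the main stress-activated factor, had 23.1, 21.4 and 27 CPM in rat tail collagen, 25.1, 21.7 and 22.7 CPM in bovine collagen, 23.2, 23.3 and 22.9 CPM in media and 64.1, 63.4 and 69.9 CPM in naive libraries. Its day 4 groups overlapped, at 0.03 in rat tail collagen against media (95% interval -0.17 to 0.24, adjusted p = 0.794). Hsf2, which pairs with Hsf1 on some targets, had 19.9, 19.5 and 17.4 CPM in rat tail collagen, 11, 11.7 and 10.3 CPM in bovine collagen, 9.91, 9.92 and 9.19 CPM in media and 10.2, 10.5 and 9.86 CPM in naive libraries. The rat tail collagen libraries were above all others, and Hsf2 rose by 0.96 ± 0.0921 (SE; adjusted p = 4.65e-06) against media. Activity of Hsf1 is known to be set by its protein state, which transcript levels do not show.

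Bovine collagen against media gave no call among the chaperone genes, 0 of 44, and 0.0206% of the 19392 genes tested were called. At an unadjusted p under 0.05 edgeR found 3 members, Hspa1a, Dnaja3 and Dnaja4, and DESeq2 also found 3 and called 0 after adjustment. Of the 42 members with at least 4 counts in each group, 41 had a 95% interval that excluded a change of 2-fold in either direction. The exception was Hspa1a, at 0.68 with an interval of 0.12 to 1.25 (adjusted p = 1.0). Its 3 bovine collagen libraries, which held 73 counts in all, lay above the 3 media libraries, which held 64. The log2 differences of the 42 genes ran from -0.14 for Hspd1 to 0.68 for Hspa1a. Hsph1 stood at 0.05 (-0.28 to 0.38), Hspa4l at -0.02 (-0.26 to 0.22) and Bag3 at 0.08 (-0.19 to 0.35), so the rises of 3-fold and more that these genes had in rat tail collagen lie outside their intervals here. Hspb1 had 1 count in bovine collagen and 6 in media, a ratio of 0.237 with an interval of 0.00514 to 1.95, and Hspa1l had 1 count in bovine collagen and 0 in media.

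Set directly against each other, the gels differed by the most in Hspa1a, Hspa1b, Hsph1 and Hspa4l among the members with more than a few counts in both. In rat tail against bovine collagen 20 of the 44 members were higher and 9 lower, against 54.7% of all genes called, 28.4% higher and 26.4% lower, and without Hspa1l and Hspb1 18 of 42 were higher. Calls of 2-fold or more were made for 10 members upward and 0 downward, against 15.3% and 6.23% of all genes. Without Hspa1l and Hspb1, which had to differ, 8 of 42 were higher by 2-fold or more. Hspa1a was higher by 6.22 ± 0.176 (SE; adjusted p = 1.23e-09), Hspa1b by 6.48 ± 0.175 (SE; adjusted p = 1.03e-09), Hsph1 by 3.44 ± 0.164 (SE; adjusted p = 3.23e-08) and Hspa4l by 3.31 ± 0.117 (SE; adjusted p = 5.08e-09). Hspa1l had 166 counts in rat tail and 1 in bovine collagen, a ratio of 130 with an interval of 23.0 to 5165. The calls not made against media were Bag1 (0.27, adjusted p = 0.0376), Dnaja2 (0.23, adjusted p = 0.0203) and Hsp90ab1 (-0.26, adjusted p = 0.0343). Each of these was lost when 1 library was left out: Bag1 without bovine collagen replicate 2 or 3 or any rat tail collagen library, Dnaja2 without bovine collagen replicate 2 or 3 or rat tail collagen replicate 3, and Hsp90ab1 without bovine or rat tail collagen replicate 1 or 2. With library totals in place of TMM factors the median of all genes moved by 0.143, the calls among all genes split into 6323 higher and 3223 lower in place of 5499 and 5118, and 23 members were higher and 4 lower.

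Media against naive answers how these genes differed after activation and culture. Hspa1a, Hspa1b and most J proteins fell, Hsp90ab1 was not called, and 4 of the 8 CCT subunits rose. Of the 44 members 11 were higher and 19 lower, against 60.8% of the 18610 genes tested, 31.6% higher and 29.2% lower. A fall of 2-fold or more was called for 11 members and a rise of that size for 0, against 11.9% and 15.2% of all genes. Without Hspa1l and Hspb1, 17 of 42 were lower, 9 of them by 2-fold or more. The log2 change was -11.06 ± 0.449 (SE; adjusted p = 4.02e-07) for Hspa1a and -10.60 ± 0.425 (SE; adjusted p = 3.17e-07) for Hspa1b, the largest of the members with counts in every library of both groups. Hspa1l had 0 counts in media and 2960 in naive libraries, so the counts given to it were at least 1194-fold lower in media. Hspb1 had 6 counts in media and 108 in naive libraries, a ratio of 0.0459 with an interval of 0.0165 to 0.103. The J proteins Dnajb2 (-2.53), Dnajb1 (-2.25), Dnajb4 (-1.95), Dnaja1 (-1.08) and Dnaja4 (-1.03) also fell by 2-fold or more, with adjusted p from 7.5e-08 to 9.88e-06. So did Hsph1 (-2.09, adjusted p = 3.06e-07) and Hsf1 (-1.45, adjusted p = 2.48e-07).

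Among members that were higher in media than in naive cells, the largest change was Tcp1 at 0.67 ± 0.118 (SE; adjusted p = 0.000962), followed by Bag1 at 0.64 ± 0.109 (SE; adjusted p = 0.000795) and Bag3 at 0.55 ± 0.138 (SE; adjusted p = 0.0074). Cct2 (0.46), Cct5 (0.42) and Cct4 (0.36) rose as well, Cct3 fell (-0.48), and Cct6a, Cct7 and Cct8 stood between -0.03 and 0.03. Tcp1, Cct2, Cct4 and Cct5 are thus the subunits that were higher in media than in naive cells and lower in rat tail collagen than in media, and both comparisons share the media libraries. Hspa8 rose by 0.33 (adjusted p = 0.0218), a call lost without naive replicate 1 (0.24) or 2 (0.33). Hsp90ab1 stood at 0.13 (95% interval -0.12 to 0.38), and Hsp90aa1 fell by 0.30 on the log2 scale (adjusted p = 0.0309), a call lost without media replicate 2 or 3 or naive replicate 2, at -0.30 to -0.21. The HSP90 co-chaperones Fkbp4 (-0.85) and Ahsa1 (-0.54) and the lid Hspe1 (-0.56) fell too. Myeloid marker sums were 9.11 to 9.94 CPM in media and 34.4 to 126 CPM in naive libraries, and naive replicates differed in Hspa1a from 557 to 1284 CPM, and the part of other cells in these changes was not tested.

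Rat tail collagen against naive sets the gel beside the fresh state. Of the 44 members 13 were higher and 20 lower, against 71.9% of the 19449 genes tested, 36.5% higher and 35.4% lower. Calls of 2-fold or more were made for 6 members upward and 8 downward, against 22.1% and 14.4% of all genes. Hspa4l (3.71 ± 0.137 (SE; adjusted p = 2.94e-08)), Bag3 (2.43 ± 0.125 (SE; adjusted p = 8.5e-08)), Hspa4 (1.69 ± 0.0853 (SE; adjusted p = 7.31e-08)), Hsph1 (1.35 ± 0.128 (SE; adjusted p = 1.02e-05)) and Hspa13 (1.12 ± 0.0801 (SE; adjusted p = 8.84e-07)) were higher in rat tail collagen. Hspb1 was also higher (1.02, adjusted p = 0.0184), a call lost without rat tail collagen replicate 2 (1.06) or 3 (0.91), with GC and length offsets (0.74, adjusted p = 0.0564) and without the 3 libraries of highest rRNA share (1.03, adjusted p = 0.139). Hspa1a (-4.21 ± 0.392 (SE; adjusted p = 0.000196)), Hspa1b (-4.02 ± 0.371 (SE; adjusted p = 0.000167)) and Dnajb1 (-2.85 ± 0.163 (SE; adjusted p = 1.36e-06)) were lower in rat tail collagen than in naive cells. Dnajb2 (-1.48, adjusted p = 2.51e-07) and Dnajb4 (-0.95, adjusted p = 1.48e-05) were lower too. The ratio of Hspa4l to Hspa1b was 4.23, 4.14 and 4.23 in rat tail collagen and 0.0364, 0.0182 and 0.0139 in naive libraries, and the groups did not overlap. Hsf1 fell (-1.46, adjusted p = 3.74e-07) and Hsf2 rose (0.90, adjusted p = 9.07e-06), and Fkbp4 (adjusted p = 8.43e-07) and Dnaja1 (adjusted p = 1.5e-06) were both 2.0-fold lower in rat tail collagen.

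Per kilobase of exon, Hsp90ab1 ranked first of the 44 members in every group, at 481 CPM per kb in rat tail collagen, 572 in bovine collagen, 524 in media and 501 in naive cells. Hspa8 was in place 2 in the day 4 groups, at 248 CPM per kb in rat tail collagen, 389 in bovine collagen and 407 in media, and in place 4 in naive cells at 339, below Hspa1b (444) and Hspa1a (342). In naive cells the spread of Hspa1a and Hspa1b over libraries was wide enough that their places beside Hspa8 are not separated. Hspa1b took place 19 in rat tail collagen (27.3 CPM per kb) and place 41 in both bovine collagen (0.296) and media (0.270). Hspa4 moved to place 4 in rat tail collagen (107 CPM per kb), against 16 in media (34.6), and Hsph1 to place 8 (77.4), against 29 in media (6.88). Dnajb1 was in place 27 in rat tail collagen (15.2 CPM per kb), 21 in media (22.1) and 6 in naive cells (109.8). The length joins all annotated exons of a gene, whichever transcript is expressed, so the order of genes depends in part on the annotation. Reads split between Hspa1a and Hspa1b make their places uncertain as well.

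Promoter letters were searched for the heat shock element, which is built from units of the triplet GAA or its reverse complement TTC. RefSeq windows of GRCm38.p6, from 250 bases before to 50 after each start, were at hand for 37 of the 44 members. A pair of units, GAANNTTC or TTCNNGAA, was counted on both strands, overlapping matches included, and was present for 17 of 37 members (45.9%), against 17.0% of the 27025 genes in the table. A run of 3 units was present for 5 of 37 members (13.5%), namely Hsph1, Hspd1, Hspe1, Chordc1 and Dnajb6, against 0.662% of all genes. In rat tail collagen against media a pair was present for 8 of 17 members called higher, 4 of 8 called lower and 5 of 12 not called. Hspd1 and Hspe1 share the run printed above and were called in opposite directions, but the Hspe1 call was lost under many alternatives, as given above. No pair was in the windows of Hspa4 or Hspa4l. In media against naive a pair was present for 4 of 9 members called higher, 9 of 17 called lower and 4 of 11 not called. A match of letters is a description and not a bound site, and Hsf1, Hspa8, Hspa9, Hspa13, Hsp90aa1, Hsp90ab1 and Cct4 were not in the table used.

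**Figure D5:**
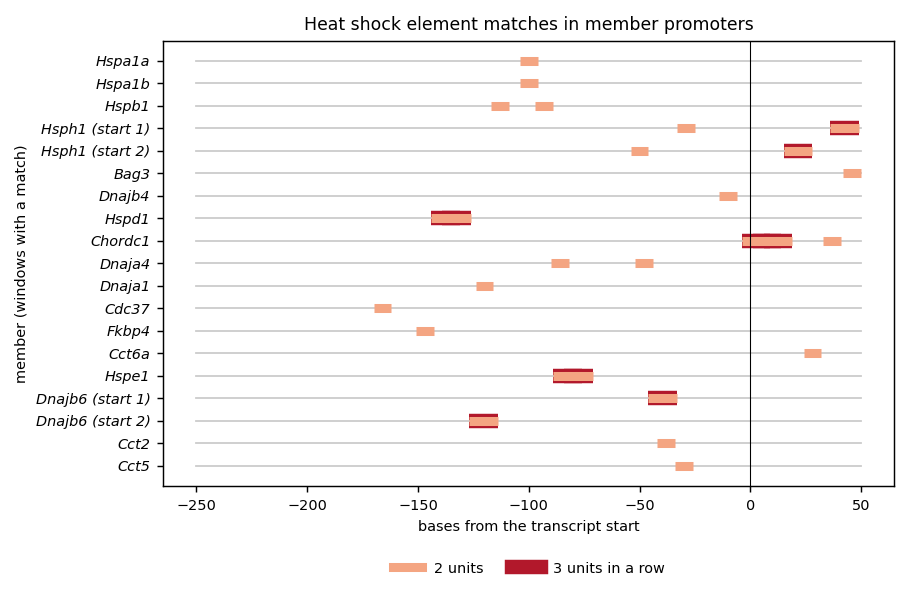
Positions of matches to the heat shock element relative to the transcript start (0) in the windows of the members that hold one, ordered by log2 change in rat tail collagen against media, largest at the top. Pale bars are pairs of units and dark outlines are runs of 3 units, which lie in windows of Hsph1, Hspd1, Chordc1, Hspe1 and Dnajb6, and grey lines span the window of 250 bases before to 50 after the start.

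Around the 44 members, 7 further lists of 106 genes held more of the chaperone network, but not all of it. They moved in both directions in rat tail collagen against media. Of the 96 that passed the filter 26 were higher (27.1%) and 26 lower (27.1%), close to the 29.7% and 28.7% of all genes. The higher genes include Cryaa and Dnajb3, which passed the filter through the rat tail collagen libraries and so had to differ. Among other HSP70 genes and regulators 4 of 11 tested were higher and 2 lower, led by the endoplasmic reticulum chaperone Hyou1 (0.58, adjusted p = 0.000359) and by Bag6 (0.49, adjusted p = 0.00041). Of other J proteins 7 of 30 tested were higher, Dnajb3 among them, and 11 lower, with Dnajc19 at -1.11 (adjusted p = 5.83e-06) and Dnajc1 at -0.87 (adjusted p = 9.1e-06). Dnajb3 had 0.556 ± 0.188 CPM in rat tail collagen, against 0.109 ± 0.0754 CPM in media (SD, n = 3 each). Other HSP90 co-chaperones had 2 of 18 higher, among them the myosin chaperone Unc45a (0.76, adjusted p = 8.81e-06), and 5 lower, among them Sugt1 (-0.41, adjusted p = 0.000389). In mitochondria 3 of 10 chaperones and proteases were higher, with Clpb at 0.95 (adjusted p = 8.37e-05), and 1 was lower, Hscb at -0.76 (adjusted p = 2.95e-05). Prefoldin and CCT partners had 3 of 10 higher and 3 lower, with the prefoldin subunits Pfdn2 at 1.26 (adjusted p = 5.61e-05) and Vbp1 at -0.84 (adjusted p = 0.000221). Of 9 further genes listed as small heat shock proteins 4 passed the filter, and Hspb11, listed for its symbol alone, fell (-1.49, adjusted p = 5.39e-06). The lens crystallin Cryaa had 1.14 ± 0.203 CPM in rat tail collagen, against 0.108 ± 0.0629 CPM in media (SD, n = 3 each), and it passed through the rat tail collagen libraries, so no fold or p is given. Heat shock factor relatives, regulators and targets outside the chaperones had 6 of 13 tested higher and 3 lower, led by Hsf4 (1.58, adjusted p = 3.94e-06) at 7.82 ± 0.794 CPM in rat tail collagen and 2.59 ± 0.230 CPM in media (SD, n = 3 each), and by the autophagy receptor Sqstm1 (0.70, adjusted p = 2.85e-05). In bovine collagen against media 0 genes of the 7 lists were called.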

How the data were processed

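The deposited table holds the authors' raw read counts as whole numbers, 1 column per library, and the counts were used as they are. Per the submitters' processing notes FastQC, MultiQC, HISAT2, SAMtools, Picard and featureCounts were used, and the notes list GRCm38 and mm10 as builds. Tool versions, annotation release and strand handling: not given in the sources used here. Each column was matched to its sample by name.

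Counts were analysed with edgeR 4.0.16 in R 4.3.3: filterByExpr by group, TMM factors, a robust quasi-likelihood F test and Benjamini-Hochberg adjustment over all genes tested, with calls at an adjusted p under 0.05. The 9 day 4 libraries shared 1 fit, and each comparison with naive cells used its 6 libraries. The SE of a log2 change was back-calculated, as its absolute value divided by the square root of the F value. The 95% intervals of log2 changes were built from that SE, so both are approximate, more so for genes with few counts in a group. CPM uses 1 TMM scale over the 12 libraries. Where a group had 0 counts, a floor of 3 counts over the group was used, and ratios of low counts have exact 95% intervals that cover counting error only. GENCODE M21 (GRCm38) gave locations and exon lengths for 53291 symbols, and RefSeq gave promoters. Exons of Hspa1a, Hspa1l, Hspa8, Hspa14, Dnaja1, Dnaja3, Dnaja4, Dnajb6, Dnajc7, Ahsa1, Hspd1, Hspe1, Cct6a, Cct7, Cct8 and Tcp1 overlap another annotated gene, so their counts may miss or share reads.

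The members, lists and alternatives were chosen with earlier results of these data known. Members with a called change of 2-fold or more in any comparison are given with every library, other members by role. Of each further list the 2 genes with the smallest adjusted p in rat tail collagen against media are named. Promoters are printed for the 3 largest rises with a RefSeq window, 1 per locus, and Hspa1b and Hspe1 were added after their values were seen. Alternatives were RLE factors, library totals, DESeq2 1.42.0, no filter beyond 1 count, other sets of libraries in the fit, the replicate number as a block, offsets for GC content and length, leaving out each library, and leaving out the 3 libraries of highest rRNA share.

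The pipeline was tested on simulated counts with 200 changed genes. Every measured comparison with rat tail collagen or naive libraries had at least 10617 calls, and bovine collagen against media had 4. The Benjamini-Hochberg cut-off depends on the share of changed genes, and whether the rates below hold at the measured shares was not tested. For rat tail collagen against media, over 19392 genes, 44.8% of 1.5-fold, 70.1% of 2-fold and 95.5% of 4-fold changes were recovered, and for bovine collagen against media 35.8%, 71.6% and 90.9%. Unchanged genes made up 6.67% of the simulated calls in rat tail collagen against media, 5.04% in bovine collagen against media, 6.99% in rat tail against bovine collagen, 8.84% in media against naive and 10.8% in rat tail collagen against naive, beside the 5% that the threshold sets.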

Additional observations from a re-analysis of the deposited data

How the results depend on the processing

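No member changed its direction among its called values under any alternative run. Without the 3 libraries of highest rRNA share (bovine collagen 2, rat tail collagen 1 and 3), which leaves 1 rat tail collagen library that is assumed to vary like the other groups, 16 members were higher and 3 lower in rat tail collagen against media and 16 higher and 2 lower against bovine collagen. Fewer libraries entered that fit, and its Cct2, Cct4 and Cct5 values against media were -0.44, -0.35 and -0.54, without a call. This alternative does not touch media against naive and was not run there. With library totals 4 members were lower in rat tail against bovine collagen. Leaving out 1 library gave 17 to 20 higher and 8 to 12 lower in rat tail collagen against media, 16 to 21 and 7 to 10 against bovine collagen, 12 to 14 and 19 to 21 against naive cells, 9 to 10 and 17 to 20 in media against naive, and 0 in bovine collagen against media. Over all genes the bovine collagen comparison had 4 higher and 0 lower calls, 6 and 3 with library totals, 14 and 7 with DESeq2, 21 and 18 with no filter, 7 and 0 with the replicate block, and 2 to 5 and 0 without 1 library. Of the member values under all alternatives, 40 lost, 395 kept and 9 gained a call in rat tail collagen against media, and 216 stayed uncalled. Beside those in the report, gained calls were Ahsa1 (-0.26 with no filter, -0.30 without media replicate 3), Hspa14 (-0.23 without media replicate 3), Bag1 (0.26 without media replicate 1) and Cct6a (-0.24 with no filter). The calls of Hspe1, Tcp1, Hspa9 and Stip1 in that comparison were lost most often, and the cause was not tested. Deviations of same-numbered libraries from their group means correlated by 0.043 to 0.116 in rat tail collagen against media, 0.029 to 0.444 in bovine collagen against media, -0.014 to 0.095 in rat tail against bovine collagen, -0.025 to 0.093 in media against naive and 0.046 to 0.148 in rat tail collagen against naive. In none of these comparisons were all 3 pairs over 0.1, so the numbers were not taken as pairs, although every library correlated best with its own number in rat tail collagen against media and against naive, a hint from the data and not from the design. With the replicate block 19 members were higher and 10 lower there, 21 and 11 against bovine collagen, 9 and 17 in media against naive and 13 and 21 in rat tail collagen against naive, and Hspa8 (0.32, adjusted p = 0.0766) and Hsp90aa1 (-0.30, adjusted p = 0.0578) were not called in media against naive. Depth limits Hspa1l and Hspb1, at 0 to 6 counts in media and bovine collagen.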
